A study of Mus musculus with 4 samples.

Results

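Follicular regulatory T cells (TFR cells) of control mice were compared with regulatory T cells of control mice sorted as non-follicular (non-TFR cells), 1 array against 1 array. These are 2 of the study's 4 arrays. The genes described are those with a probe that names exactly 1 gene, 22180 genes from 41345 probes on the array, each represented by its brightest probe. A level is a log2 value after quantile normalization of the 4 arrays, and a difference is the control TFR level minus the control non-TFR level, so that a difference of 1 is a 2-fold difference. Genes whose mean level over the 4 arrays exceeded 5.91, the median of all genes, are called expressed, and there were 11090 of them. No fold is given where either level lay under that limit. With 1 array for each population there is no replicate check, and no test or error can be given for any difference below.

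The control mice carried FoxP3YFP-Cre, an allele that makes a fluorescent reporter and Cre recombinase under the control of Foxp3. The other pair of arrays came from Prdm1fl/flFoxP3YFP-Cre mice, here called the knockout, in which the same Cre meets a floxed Prdm1. Every array therefore came from Cre-bearing cells. All mice had received NP-OVA, a haptenated ovalbumin, in CFA, an oily adjuvant with mycobacteria, 7 days before the sort. TFR cells were sorted as CD4+ YFP+ cells with PD1 and CXCR5, and non-TFR cells as CD4+ YFP+ cells without CXCR5. Only the first gate asked for PD1, so what goes with PD1 and what goes with CXCR5 cannot be told apart. The sources used here do not give how many mice went into each array, nor their sex, age or strain background.

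Regulatory T cells restrain immune responses and depend on the transcription factor Foxp3. Some of them take up CXCR5 and Bcl6, enter B cell follicles and act on the germinal centre, where follicular helper T cells and B cells meet. Naive and resting T cells, by contrast, circulate between blood and lymphoid organs and are kept in that state by factors such as Klf2, Satb1 and Foxo1.

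The sort genes followed the gates. Cxcr5, the chemokine receptor for the follicle, was at 9.52 in TFR cells against 8.06 in non-TFR cells, and Pdcd1, which encodes PD1, at 9.86 and 7.44. Foxp3 (12.36 and 12.45), Cd4 (11.23 and 11.02) and the T cell receptor chain Cd3e (12.93 and 12.96) were alike. Prdm1, intact in these mice and encoding Blimp-1, was at 8.21 in TFR cells against 7.80 in non-TFR cells. Of 16 measured B cell markers 6 lay above the expression limit in each array. Ms4a1 (4.02 and 4.12), Cd79a (5.59 and 5.69) and Cr2 (4.70 and 4.68) were all under the limit, whereas the inhibitory lectin Cd22 was at 8.27 and 5.99 and Ighm at 13.12 and 12.58. A further bright probe of Ighm was at 13.23 and 11.6, and its probes with the opposite sign were all dim. Ighg3, another immunoglobulin constant region, was at 8.14 and 6.42 (3.30-fold higher), a gene picked with its values in view. The summed linear level of the B cell list, most of it Ighm, was 10300 in TFR and 7030 in non-TFR cells. Of 24 myeloid and dendritic cell markers 3 and 2 lay above the limit, with Lyz2 at 4.46 and 4.22 and Itgax at 4.98 and 4.95. Their summed levels were 2770 and 2820. Of 9 markers of CD8 T and NK cells 3 lay above it in each array, with Cd8a at 5.36 and 5.60 but Cd8b1 at 8.73 and 9.42, and summed levels of 847 and 1010. The other marker sets had summed levels of 4200 in both arrays for plasma cells, 1520 and 1650 for germinal centre B cells, 1640 and 1980 for stromal cells and 234 and 260 for erythroid cells and platelets. The part of such cells in the differences below was not tested. Fewer cells of a type and less RNA per cell cannot be told apart in sorted bulk samples.

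Most genes had nearly the same level in both populations. The middle 95% of expressed genes had differences between -0.80 and 1.26. Of the 11090 expressed genes, 458 (4.13%) were at least 2-fold higher in TFR cells, and 151 (1.36%) were lower by that much. The imbalance grew with the size of the difference: 95 genes were at least 4-fold higher against 7 lower, and 20 at least 8-fold higher against 0 lower. Over all 22180 genes these counts were 99 against 8, and 23 against 1. Being expressed rests on the mean of the 4 arrays. Some of the genes counted therefore lay under the limit in non-TFR cells, where the size of a difference is uncertain. On the values as deposited, whose median difference over all genes is 0.11, the counts were 573 higher and 104 lower, so that 84.6% of the genes past 2-fold were higher in place of 75.2%. By level, the share at least 2-fold higher was 0.667% in the dimmest 25% of genes, 1.82% and 5.43% in the next bins of that size and 2.83% in the brightest. Gene lists below are counted over all measured members and set beside the shares of all genes. Most lists hold mainly expressed genes, for which the shares past 2-fold, 4.13% and 1.36%, are larger. The highest difference was that of Prr11 (4.24) and the lowest among expressed genes that of Ly6c2 (-2.77).

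**Figure D1:**
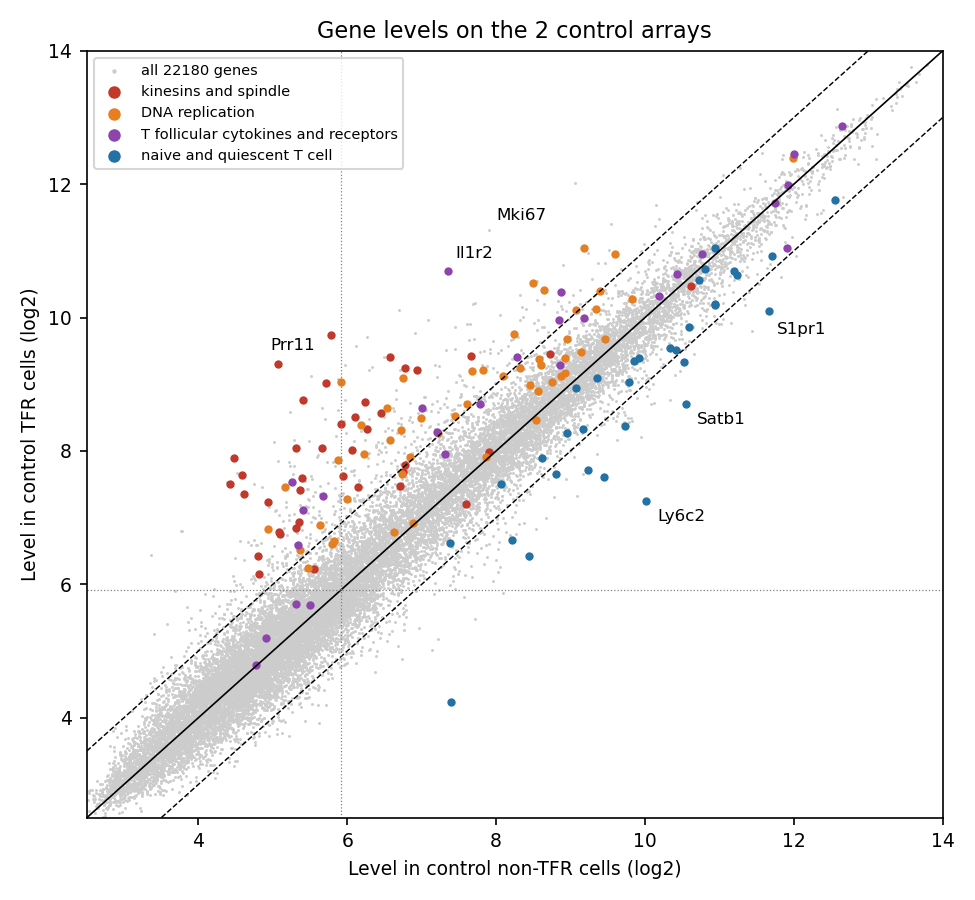
Levels of 22180 genes (grey) in control TFR cells (vertical, log2) and control non-TFR cells (horizontal, log2), 1 array each, with members of 4 gene lists in colour. The solid line marks equal levels, dashed lines a 2-fold difference and dotted lines the expression limit of 5.91; 32 of 39 spindle genes lie above the upper dashed line, and Ly6c2 and Satb1 lie below the lower one.

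Cell division genes made up a large share of what was higher. The 8 division lists hold 2.28% of the expressed genes but 143 of the 458 genes at least 2-fold higher, 31.2%, and 2 of the 151 at least 2-fold lower. Of the 30 genes with the highest difference 26 were on a division list, and of the 30 with the lowest, 0. Over all 281 measured division genes, 254 were higher in TFR cells, beside 51.7% of all genes, with 154 past 2-fold upward and 4 downward, beside 2.69% and 1.18% of all genes. Their median difference was 1.10. The other 266 genes at least 2-fold higher were on no list, and 49 were on other lists.

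**Figure D2:**
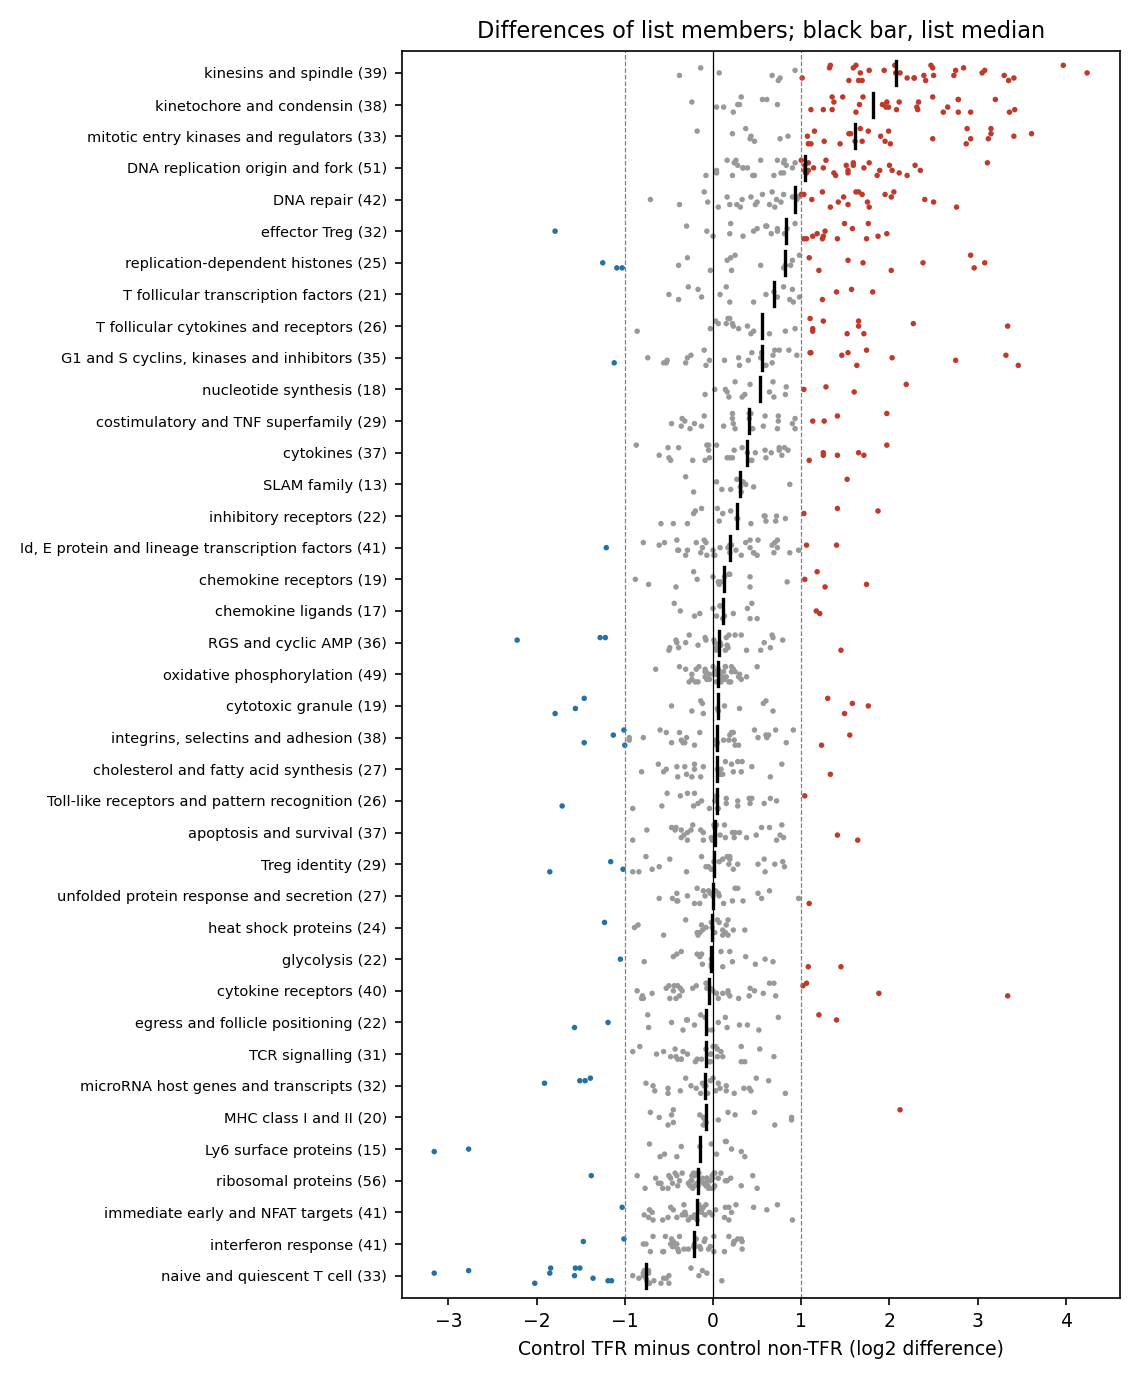
Difference between control TFR and control non-TFR cells (horizontal, log2) for each measured member of 39 gene lists, with the number measured in brackets, red at least 2-fold higher, blue at least 2-fold lower; black bars are list medians. Lists of mitosis and DNA replication stand at the top, from 2.07 down to 1.04, and the naive and quiescent list stands at the bottom at -0.76.

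The division lists differed in size, with the lists of mitosis the highest. The median difference was 0.55 for 35 cyclins, kinases and inhibitors of G1 and S phase, 0.53 for 18 genes of nucleotide synthesis, and 1.04 for 51 genes of replication origins and forks. It was 1.61 for 33 kinases and regulators of mitotic entry, 1.81 for 38 kinetochore and condensin genes and 2.07 for 39 kinesins and spindle genes. Genes of DNA repair (42 measured) had a median of 0.93 and replication-dependent histones (25) one of 0.82. In the knockout pair, which shares no array with the control pair, the corresponding medians were 0.35, 0.34, 0.79, 1.31, 1.65, 1.53, 0.81 and 0.27.

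Genes of G1 and S phase had a wide range, from -1.12 to 3.46. Cyclin D2 (Ccnd2), a partner of Cdk4 and Cdk6, was at 11.90 in TFR cells against 11.94 in non-TFR cells. Ccnd3 was at 9.58 and 9.87, and the growth regulator Myc at 10.30 and 10.38. The D-type cyclins and Myc were thus level or slightly lower in TFR cells. The inhibitors of these kinases went different ways: Cdkn2c was at 7.70 and 6.07 (3.10-fold higher), while Cdkn2d was at 8.59 and 9.71 (2.18-fold lower) and Cdkn1b at 9.01 and 9.75. Genes of the step into S phase were higher. Cyclin E1 (Ccne1) was at 7.99 and 6.52 (2.76-fold), the phosphatase Cdc25a at 8.08 and 6.98 (2.15-fold), and E2f1 at 7.69 and 6.74. The repressive factors that close the E2F programme were further apart than E2f1, with E2f8 at 9.29 and 5.97 (9.97-fold) and E2f7 at 7.83 and 5.80. Ccna2, the cyclin of S and G2 phase, had levels of 9.58 and 6.12 and the highest difference on its list, 3.46. In all 24 of the 35 were higher, 10 at least 2-fold, and 1 at least 2-fold lower.

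Nearly all DNA replication genes were higher, 50 of 51, and 27 at least 2-fold. Ticrr, which helps load the helicase activator Cdc45, was at 9.03 in TFR cells against 5.92 in non-TFR cells (8.64-fold). Cdc45 itself was at 8.39 and 6.19 (4.59-fold) and Cdc6, which loads the helicase on origins, at 8.65 and 6.53 (4.32-fold). Initiation factors were thus among the members furthest apart. The catalytic polymerase subunit Pole was at 9.10 and 6.75, but its other probe had the opposite sign. The DNA ligase Lig1 was at 10.52 and 8.49 (4.09-fold). Of the 6 subunits of the replicative helicase 5 were past 2-fold, and Mcm4, at 10.40 and 9.40, lay just short of it. The others ranged from 2.05-fold for Mcm2 (10.12 and 9.08) to 3.42-fold for Mcm3 (10.42 and 8.65) and 3.62-fold for Mcm5 (11.04 and 9.18), with Mcm6 at 2.58-fold and Mcm7 at 2.89-fold. The sliding clamp Pcna, at 12.39 and 11.99, differed by only 0.39. Of the enzymes that make nucleotides, the ribonucleotide reductase subunit Rrm2 was at 8.49 and 6.30 (4.56-fold), its partner Rrm1 at 9.24 and 7.95 (2.44-fold) and thymidylate synthase Tyms at 9.52 and 7.92 (3.03-fold).

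**Figure D3:**
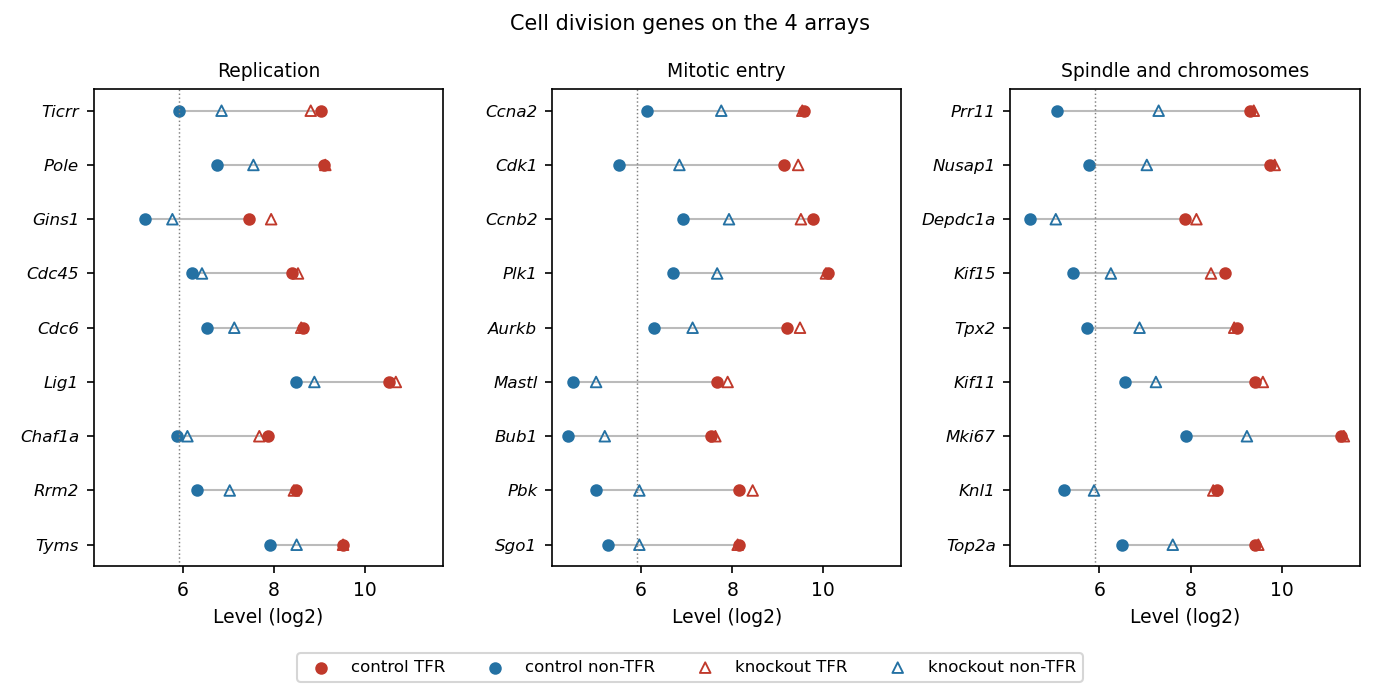
Levels (horizontal, log2) of 27 cell division genes on the 4 arrays, TFR in red and non-TFR in blue, control as filled circles and knockout as open triangles, 1 array each; the dotted line is the expression limit of 5.91. TFR points lie to the right of non-TFR points for each gene shown, and the knockout non-TFR point lies between the control points.

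Mitosis separated the populations furthest. The kinase Cdk1, which drives entry into mitosis, was at 9.13 in TFR cells against 5.52 in non-TFR cells, and its cyclin Ccnb2 at 9.78 and 6.91 (7.31-fold). The mitotic kinase Plk1 was at 10.11 and 6.70 (10.7-fold), and Aurkb, the kinase of the chromosomal passenger complex, at 9.21 and 6.29 (7.58-fold). Mastl, which holds Cdk1's opposing phosphatase in check, was at 7.66 and 4.51. These genes were 2.87 to 3.61 apart. Aurka, the centrosomal relative of Aurkb, differed far less, at 7.97 and 7.50. Of the 33 genes of this list 32 were higher and 25 at least 2-fold.

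Spindle and chromosome genes gave the highest differences of all. Prr11, a cell cycle gene needed for passage through S phase and mitosis, was at 9.31 in TFR cells against 5.07 in non-TFR cells. Nusap1, which bundles spindle microtubules, was at 9.74 and 5.78, and the spindle assembly factor Tpx2 at 9.02 and 5.72. The motor Kif11 was at 9.41 and 6.57 (7.16-fold) and the motor Kif15 at 8.76 and 5.41. On the chromosome side, Mki67, which coats mitotic chromosomes, was at 11.31 and 7.90, Top2a, which untangles DNA, at 9.41 and 6.49 (7.55-fold), and the kinetochore scaffold Knl1 at 8.59 and 5.23. Several non-TFR levels lay under the expression limit, so that these differences have no fold. Smc4, a condensin subunit, was an exception on its list at 11.96 and 12.20. Of 39 spindle genes 37 were higher and 32 at least 2-fold, and of 38 kinetochore and condensin genes 37 and 28. In non-TFR cells 19 of the 39 spindle genes lay above the expression limit, and in TFR cells all 39 did.

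The 4 arrays were not evenly spaced for these genes. Prr11 was at 9.39 in knockout TFR and 7.30 in knockout non-TFR cells, so that both TFR arrays were alike and the control non-TFR array was the lowest. The same order held for Ccna2 (9.54 and 7.76 in the knockout), Mki67 (11.37 and 9.24) and Cdk1 (9.45 and 6.84). The sum of linear levels over the division lists was 144000 (control) and 143000 (knockout) on the TFR arrays, and 78800 and 86400 on the non-TFR arrays.

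Histone genes that are copied with DNA replication were mixed. Of 25 measured, 9 were past 2-fold upward and 3 downward. H2bc3 was at 12.02 in TFR cells against 9.05 in non-TFR cells (7.81-fold) and H2ac15 at 9.26 and 6.34 (7.58-fold), while H4c1 was at 4.94 and 6.19. Histone genes are near-identical in sequence, so which of them gave a signal is uncertain. Among DNA repair genes Hells, a chromatin remodeller, was at 9.22 and 6.71 (5.66-fold), the helicase Brip1 at 7.51 and 4.75, and Brca2 at 8.15 and 6.10 (4.14-fold). Of 42 repair genes 38 were higher, 19 past 2-fold.

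Promoters of division genes are shown because so many members were higher together. In textbook accounts, late cell cycle genes carry a CHR element, TTTGAA, bound by the DREAM complex in resting cells, and CCAAT boxes bound by NF-Y, whereas replication genes more often carry E2F sites. The windows below run from 120 bases before to 30 bases after the annotated start, on the strand of the gene, from RefSeq on GRCm38.p6. Capitals mark TTTGAA or CCAAT on either strand, the reverse of CCAAT reading ATTGG.
Ccnb2, chr9:70421525-70421674, minus strand: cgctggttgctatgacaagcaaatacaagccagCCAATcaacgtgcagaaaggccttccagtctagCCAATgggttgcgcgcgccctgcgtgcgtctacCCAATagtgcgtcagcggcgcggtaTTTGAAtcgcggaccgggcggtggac
Cdk1, chr10:69352883-69353032, minus strand: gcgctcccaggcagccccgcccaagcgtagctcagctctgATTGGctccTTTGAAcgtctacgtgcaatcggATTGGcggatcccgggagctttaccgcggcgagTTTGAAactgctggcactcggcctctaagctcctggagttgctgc
Mki67, chr7:135716350-135716499, minus strand: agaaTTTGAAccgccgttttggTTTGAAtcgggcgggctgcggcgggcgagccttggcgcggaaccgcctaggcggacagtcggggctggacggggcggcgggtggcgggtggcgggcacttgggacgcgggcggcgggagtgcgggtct
Ticrr, chr7:79660076-79660225, plus strand: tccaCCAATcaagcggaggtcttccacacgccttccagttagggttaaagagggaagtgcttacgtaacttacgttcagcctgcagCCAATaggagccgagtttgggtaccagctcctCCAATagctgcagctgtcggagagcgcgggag
Ccnb2 has 3 CCAAT boxes at -87, -54 and -21, each 33 bases from the next, followed by the CHR letters at 5. Cdk1 has 2 of each motif, Mki67 has 2 CHR matches in this window, and Ticrr has 3 CCAAT boxes.

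Across the array the motifs were counted in the full RefSeq window of 300 bases, on both strands, for the genes that have one. TTTGAA was found at 54 of 94 genes of the mitotic entry, spindle and kinetochore lists (57.4%), beside 17.8% of all genes and 13.9% of expressed genes. It was found at 25.5% of the genes at least 2-fold higher and 19.6% of those at least 2-fold lower. Outside the division lists the higher genes had it in 16.7%, between the shares of expressed and of all genes. The higher and lower genes were drawn from the expressed genes. CCAAT was found at 64.9% of mitotic, 58.5% of replication, 52.1% of higher and 42.2% of lower genes. It was found at 42.4% of expressed and 41.6% of all genes. Both motifs together stood at 43.6% of mitotic, 5.67% of expressed and 7.13% of all genes. The E2F letters, GGCGGGAA or TTTGGCGC, were found at 31.7% of replication, 9.57% of mitotic, 10.1% of higher and 1.96% of lower genes. Their shares were 5.78% of expressed and 4.04% of all genes. A match describes letters in these windows and does not show a bound site. The shares of the mitotic and replication lists follow from which genes were listed and do not depend on the differences between the arrays.

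**Figure D4:**
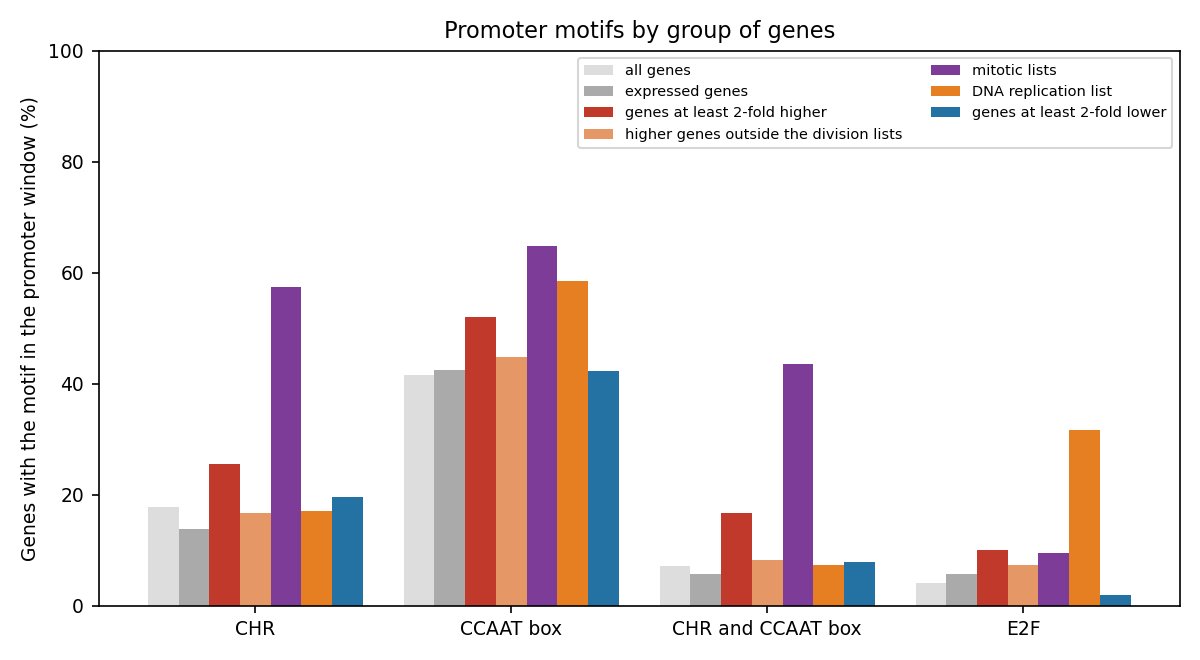
Share of genes (vertical, percent, from 0) whose 300 base promoter window holds each motif on either strand, for 7 groups of genes. Higher and lower genes are those of the control pair, whereas the shares of the mitotic and replication lists do not depend on the arrays' differences. TTTGAA (CHR) stands at 57.4% in the mitotic lists, 13.9% in expressed genes and 17.8% in all genes. The E2F letters stand at 31.7% in the replication list, 5.78% in expressed genes and 4.04% in all genes.

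Among transcription factors of follicular T cells, 16 of 21 were higher in TFR cells, 4 at least 2-fold, with a median of 0.69. Of all genes 51.7% were higher and 2.69% at least 2-fold higher. Maf, which drives Il4 and Il21, was at 10.16 in TFR cells against 8.35 in non-TFR cells (3.51-fold), and its other probe differed in the same direction. The HMG box factor Tox2 was at 8.71 and 7.14 (2.97-fold), Cebpa at 7.80 and 6.4 (2.64-fold) and the AP-1 factor Batf at 10.23 and 8.99 (2.37-fold). Those 4 passed 2-fold. Bcl6, which defines follicular T cells and opposes Blimp-1, was at 8.82 and 7.84 (1.97-fold). Ascl2, which induces Cxcr5, was at 6.28 and 5.36, the octamer coactivator Pou2af1 at 7.28 and 6.41 and Nfatc1 at 10.78 and 9.88. Members below 0 included Lef1 (10.70 and 11.20), Id3 (8.57 and 8.96) and Stat3 (11.68 and 11.82).

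The secreted and surface molecules of follicular T cells were higher in 24 of 26 cases, 10 at least 2-fold, with a median of 0.55. The shares over all genes were 51.7% and 2.69%. Il1r2, a decoy receptor for interleukin-1, was at 10.70 in TFR cells against 7.35 in non-TFR cells (10.2-fold). Il1rn, the soluble antagonist of the same receptor system, was at 7.53 and 5.26. The cytokines Il4 (7.11 and 5.41) and Il21 (6.59 and 5.34), which help B cells, and the secreted BMP and Wnt antagonist Sostdc1 (7.33 and 5.68) also lay under the expression limit in non-TFR cells only. Among molecules that touch B cells, Sh2d1a, the SLAM adaptor SAP, was at 10.39 and 8.87 (2.86-fold), the costimulator Icos at 9.97 and 8.85 (2.19-fold) and Cd40lg at 8.71 and 7.78. The chemokine receptor Cxcr4 (11.98 and 11.92) and the cytokine receptor chain Il6st (11.71 and 11.74) were alike, and Il6ra was lower at 11.05 and 11.91. All 8 measured markers shared with conventional follicular helper T cells were higher with a median of 1.11, and 4 passed 2-fold.

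Identity genes of regulatory T cells did not separate the populations as a group. Of 29 measured, 15 were higher, beside 51.7% of all genes, and the median was 0.01. Past 2-fold were 0 upward and 3 downward, beside 2.69% and 1.18% of all genes. The interleukin-2 receptor chain Il2ra was at 11.67 in TFR cells against 12.17 in non-TFR cells, and its partner Il2rb at 12.98 and 12.79. The inhibitory receptor Ctla4 was at 11.39 and 11.11 and Lrrc32, which holds latent TGF-beta on the surface, at 11.05 and 11.12. The Helios gene Ikzf2 was somewhat higher, at 10.40 and 9.70. The adenosine-forming enzyme Nt5e was at 10.84 and 10.05. The 3 members past 2-fold in the lower direction were Satb1 (8.70 and 10.55), the extracellular matrix protein Ecm1 (10.18 and 11.35, 2.24-fold) and the cytokine signalling inhibitor Socs2 (7.39 and 8.41), whose probes differ in sign.

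Genes of effector regulatory T cells were higher in 28 of 32 cases, beside 51.7% of all genes, with a median of 0.83. At least 2-fold higher were 14, beside 2.69% of all genes and 4.13% of expressed genes. Lower by that much was 1, beside 1.18% and 1.36%. Tnfrsf8, the receptor CD30, led them at 9.68 in TFR cells against 7.71 in non-TFR cells (3.92-fold). Tigit, an inhibitory receptor, was at 11.41 and 9.54 (3.65-fold), and Lag3, which binds MHC class II, at 8.65 and 7.24 (2.65-fold). The receptors for inflamed tissue were higher too, with Cxcr3 at 10.14 and 8.40 (3.33-fold), Ccr6 at 8.05 and 6.78 (2.41-fold) and Ccr4 at 8.69 and 7.51 (2.27-fold). The T helper factor Tbx21 was at 7.86 and 6.80 (2.08-fold). Il10, a suppressive cytokine, was at 9.03 and 8.22 (1.75-fold). In the knockout pair the list's median was 0.20, with 4 members at least 2-fold higher, beside 2.23% of all genes there. On that pair Tnfrsf8 differed by 1.56 and Cxcr3 by 0.92, at levels of 8.44 and 9.52 in non-TFR cells, and the control non-TFR array was the lowest of the 4 for both.

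The cytotoxic granule list was split. Gzmk, a protease, was at 7.05 in TFR cells against 5.29 in non-TFR cells, Cst7, an inhibitor of granule proteases, at 11.02 and 9.52 (2.82-fold) and the granule protein Nkg7 at 10.42 and 9.12 (2.45-fold). Against these, the pore protein Prf1 was at 6.26 and 8.05 (3.45-fold lower), the cathepsin Ctsw at 8.77 and 10.33 (2.95-fold lower) and Gzmc at 4.93 and 6.39. In all 4 of 19 were past 2-fold upward and 3 downward, beside 2.69% and 1.18% of all genes, with a median of 0.06. Gzmb was at 8.54 and 7.94.

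**Figure D5:**
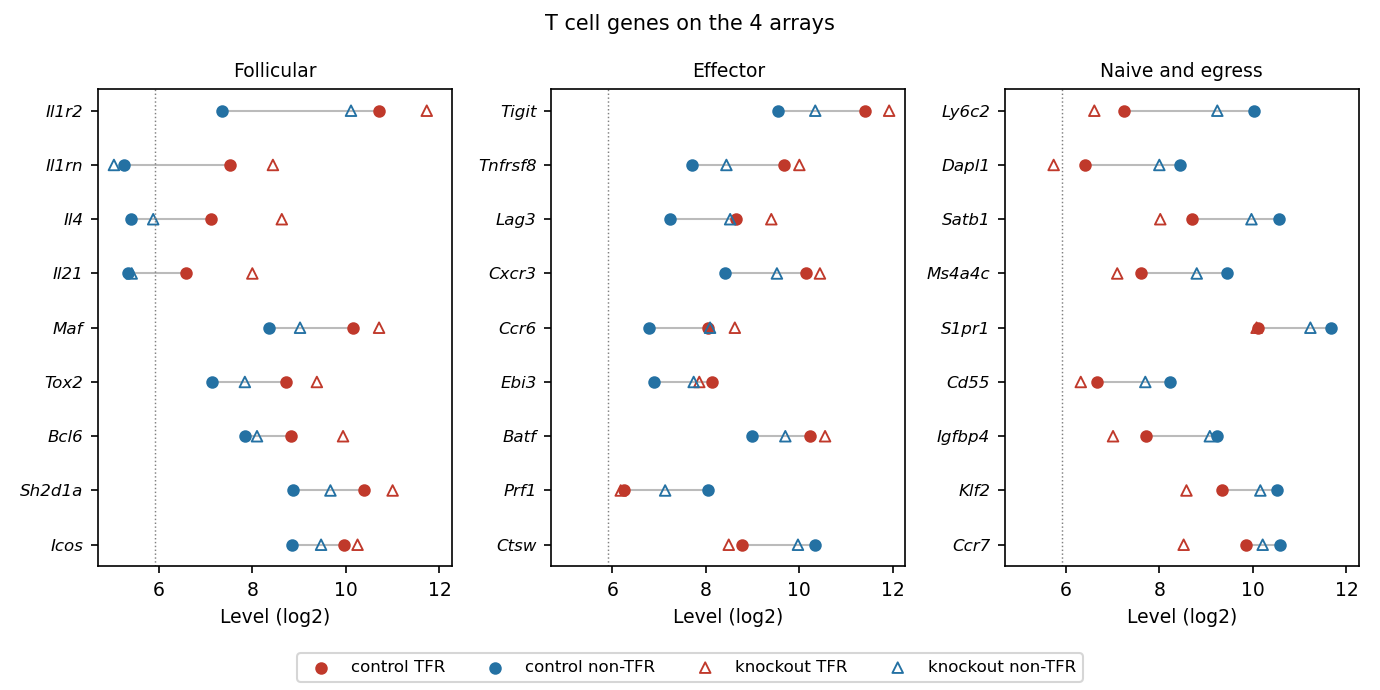
Levels (horizontal, log2) of 27 T cell genes on the 4 arrays, TFR in red and non-TFR in blue, control as filled circles and knockout as open triangles, 1 array each; the dotted line is the expression limit of 5.91. In the control pair the follicular genes lie to the right in TFR cells, the naive and egress genes lie to the right in non-TFR cells, and the effector panel holds both kinds, with Prf1 and Ctsw reversed.

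Genes of naive and quiescent T cells were lower in TFR cells in 32 of 33 cases, beside 48.3% of all genes, with a median of -0.76. At least 2-fold lower were 11, beside 1.18% of all genes. Ly6c2, a surface protein of some circulating T cells, was at 7.25 in TFR cells against 10.02 in non-TFR cells (6.84-fold lower), but its signal cannot be assigned apart from that of the near-identical Ly6c1 (4.24 and 7.39). Dapl1, a death-associated protein homologue of resting T cells, was at 6.42 and 8.44 (4.06-fold lower). Satb1, which organizes chromatin in T cells, was at 8.70 and 10.55 (3.60-fold lower). The membrane protein Ms4a4c was at 7.61 and 9.45 (3.57-fold lower), the complement regulator Cd55 at 6.66 and 8.22 (2.94-fold lower) and the growth factor binding protein Igfbp4 at 7.72 and 9.23 (2.85-fold lower). Each of these had the same order in the knockout pair, where the list's median was -0.88. Klf2, which maintains quiescence and turns on S1pr1, was at 9.34 and 10.52 (2.28-fold lower), and Foxo1, upstream of Klf2, at 10.19 and 10.94. The survival receptor Il7r was closer, at 9.35 and 9.85.

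Genes of egress and positioning divided by receptor. S1pr1, which takes T cells out of lymphoid organs, was at 10.10 in TFR cells against 11.67 in non-TFR cells (2.97-fold lower). Ccr7, the receptor for the T cell zone, was at 9.86 and 10.59 (1.66-fold lower). S1pr2, which holds cells in the follicle, was at 8.29 and 7.99, and Gpr183, which guides cells to the follicle's edge, at 8.44 and 8.27. The members past 2-fold upward were the semaphorin receptor Plxnb2 (7.31 and 5.91) and the prostaglandin receptor Ptger2 (8.61 and 7.41, 2.30-fold), and those past it downward were S1pr1 and Klf2. Their relatives Plxnd1 (8.80 and 8.05) and Ptger4 (10.96 and 10.44) were higher by less than 2-fold, and the semaphorin Sema4a was lower (6.61 and 7.35). Of the 22 measured genes 2 were past 2-fold upward and 2 downward, beside 2.69% and 1.18% of all genes, and the median was -0.07.

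Genes of cyclic AMP and of G protein regulation went both ways. Adcy6, an adenylate cyclase, was at 5.87 in TFR cells against 8.09 in non-TFR cells. Pde2a, which breaks cyclic nucleotides down, was at 8.49 and 9.77 (2.43-fold lower), and Rgs11, a G protein regulator, at 5.43 and 6.65. The cyclase Adcy7 was higher, at 8.56 and 7.89 (1.6-fold), as was Rgs9, at 9.47 and 8.02 (2.74-fold). Of 36 genes 23 were higher, beside 51.7% of all genes. At least 2-fold, 1 was higher and 3 were lower, beside 2.69% and 1.18% of all genes.

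Costimulatory, inhibitory and cytokine genes were more often higher than lower, beside 51.7% of all genes higher. Most stayed within 2-fold, but in each of those lists a larger share was past it upward than the 2.69% of all genes. Of 29 costimulatory and TNF superfamily genes 21 were higher, 4 at least 2-fold, with a median of 0.41. Cd28, the founding costimulator, was at 9.43 and 9.75, while Tnfsf13b, the B cell survival factor BAFF, was at 7.10 in TFR cells against 5.84 in non-TFR cells. Of 22 inhibitory receptors 16 were higher, 3 at least 2-fold (median 0.28), with Cd200 higher by 0.82 and Vsir lower at 10.89 and 11.34. Of 37 cytokines 25 were higher and 7 at least 2-fold (median 0.39). Penk, the precursor of enkephalins, was at 9.97 and 8.56 (2.65-fold) and the macrophage growth factor Csf1 at 9.38 and 8.29 (2.12-fold). The cytokine subunit Ebi3 was at 8.14 and 6.89 (2.38-fold), and Il27, whose product pairs with it in interleukin-27, at 6.19 and 7.06. Of 40 cytokine receptors 19 were higher and the median was -0.05. Both chains of the interferon-gamma receptor were lower, Ifngr1 at 10.03 and 10.82 (1.73-fold) and Ifngr2 at 8.97 and 9.77 (1.74-fold).

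None of the 31 T cell receptor signalling genes was past 2-fold, beside 2.69% of all genes higher by that much and 1.18% lower. With shares that small, such a count says little about a list of this size. Of the 31 genes 10 were higher, beside 51.7% of all genes, and the median was -0.08. The kinase Zap70 was at 11.21 in TFR cells against 10.52 in non-TFR cells, while the adaptor Grap2 was at 9.85 and 10.76 and Trat1 at 9.67 and 10.50. Of 41 immediate early genes and NFAT targets 30 were lower, beside 48.3% of all genes, and 1 at least 2-fold, beside 1.18% (median -0.18). That gene was the phosphatase Dusp2 (10.38 and 11.40), and Nr4a1, a nuclear receptor induced by antigen, was at 12.38 and 13.10 (1.64-fold lower). Irf4, induced by the same stimulus and needed for effector regulatory cells, was higher at 9.32 and 8.58, and so was Egr3 at 8.65 and 8.04.

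Interferon response genes were lower in 30 of 41 cases, beside 48.3% of all genes, and their median was -0.22. Of these, 2 were at least 2-fold lower, beside 1.18% of all genes. Oas2, a sensor of double-stranded RNA, was at 6.4 in TFR cells against 7.88 in non-TFR cells (2.77-fold lower), and the GTPase Irgm2 at 7.62 and 8.62. The endosomal RNA sensor Tlr7 was at 6.84 and 8.54 (3.26-fold lower), while Tlr9, which senses DNA, was at 6.75 and 6.03 (1.65-fold higher). Of the MHC genes H2-DMb2, a chain of the class II peptide editor, was at 8.31 and 6.18 (4.36-fold higher), and the class II chains H2-Ab1 (6.95 and 6.06, 1.86-fold), H2-Eb1 (7.16 and 6.46, 1.63-fold) and H2-Oa (10.37 and 9.48, 1.85-fold) were higher too. H2-Ob was lower at 7.88 and 8.49, and H2-Aa was under the limit at 5.37 and 5.46. These class II genes stand beside the higher levels of Cd22 and Ighm given above, and the part of B cells in them was not tested. Over the 20 measured MHC genes 8 were higher, beside 51.7% of all genes, and the median was -0.09.

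Growth and metabolic genes did not follow the division genes. Ribosomal protein genes were lower in 43 of 56 cases, beside 48.3% of all genes, with a median of -0.16. Of these, 1 was at least 2-fold lower, beside 1.18% of all genes. The 49 genes of oxidative phosphorylation all stayed within 2-fold (median 0.06), as most genes did. Glycolysis had a median of -0.02 over 22 genes. Its members went different ways, with the isomerase Tpi1 at 10.82 in TFR cells against 9.37 in non-TFR cells (2.74-fold higher), Pgam1 at 10.21 and 9.12 (2.12-fold higher) and the glucose transporter Slc2a1 at 10.30 and 10.70. Sterol enzymes Msmo1 (7.05 and 7.86) and Hmgcs1 (7.04 and 7.66) were lower, against a median of 0.05 over 27 genes of lipid synthesis. Heat shock genes had a median of -0.02. Hsp90aa1 was at 8.91 and 9.80 (1.85-fold lower), and Hspa1b at 10.60 and 11.83, with signal that cannot be assigned apart from Hspa1a (11.81 and 12.66).

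The 4 measured microRNA genes of a single cluster were lower in TFR cells, while the division genes were higher. The cluster lies within 593 bases on the plus strand of chromosome 14, where RefSeq places the Mir17 hairpin at chr14:115043671-115043754, Mir18 at chr14:115043851-115043946, Mir19a at chr14:115044000-115044081 and Mir20a at chr14:115044157-115044263 (GRCm38.p6). One mature strand of each is printed with the seed, bases 2 to 8, in capitals, because the seed sets which transcripts a microRNA binds.
mmu-miR-17-5p: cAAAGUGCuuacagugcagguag
mmu-miR-20a-5p: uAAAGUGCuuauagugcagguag
mmu-miR-18a-5p: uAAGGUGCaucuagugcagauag
mmu-miR-19a-3p: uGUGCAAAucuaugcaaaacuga
Mir17 and Mir20a share the seed AAAGUGC, and the printed strands of Mir18 and Mir19a have other seeds. Mir20a was at 7.65 in TFR cells against 9.16 in non-TFR cells (2.85-fold lower), Mir19a at 6.05 and 7.96 (3.76-fold lower), Mir18 at 6.0 and 7.38 (2.61-fold lower) and Mir17 at 5.31 and 6.76. In the knockout pair Mir20a was at 7.34 and 8.51, Mir19a at 5.89 and 6.96, Mir18 at 5.59 and 7.21 and Mir17 at 4.93 and 5.94, the same order in each case. Mir106b, which has the seed of Mir17 but lies in another cluster, inside Mcm7, was at 6.30 and 6.11, and Mir20b, which also has it, at 4.56 and 4.92, under the limit on both arrays. Mir18b, with the seed AAGGUGC of Mir18, was at 3.43 and 3.16. Mir19b-2, with the seed GUGCAAA of Mir19a, was at 3.13 and 3.24, and both lay under the limit. Whether these probes read the primary transcript, the hairpin or the mature strand is not given in the sources used here.

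Of all 558 microRNA and snoRNA genes 16 (2.87%) were at least 2-fold lower and 3 (0.538%) were higher by that much, beside 1.18% and 2.69% of all genes. SnoRNA genes were lower in 61 of 80 cases with a median of -0.22, and the 478 microRNA genes had a median of -0.06, which was 0.02 on the values as deposited. Snord66 was at 7.09 and 8.25 (2.24-fold lower) and Snord73a at 6.66 and 7.72 (2.08-fold lower), while Snora73b was at 8.46 and 7.76. Protein-coding genes had a median of 0.02.

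The direction of the differences was shared by the knockout pair for 450 of the 458 genes past 2-fold in the higher direction, beside 51.6% of expressed genes higher in that pair, and for 146 of the 151 past it in the lower one, beside 48.4%. Gene groups nevertheless differed in size between the pairs, as the medians above show. For Bcl6 the difference was 0.98 in the control pair and 1.84 in the knockout pair (9.94 and 8.10), for Ccr7 it was -0.73 and -1.69, and for Il21 1.25 and 2.58. For the effector genes Nkg7 and Cst7 it was 1.30 and -0.09, and 1.49 and 0.20. None of these differences between pairs was tested.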

How the data were processed

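RNA of 4 sorted samples was hybridized to Affymetrix Mouse Gene 2.0 ST arrays, 1 array a group, per the labels. The deposited table holds 1 log2 value per probe, made by the authors, and the log2 scale was inferred from its range of 2.23 to 13.82. The only tool in the submitters' processing notes is MAS5, with no version. Quantile normalization (limma 3.58.1, R 4.3.3) of the 4 arrays equalized their distributions, which also removes a shift common to most genes (deposited medians 5.69 and 5.58). Of the probes, 23521 named 1 gene, 1814 several and 16010 none, and 23328 matched the RefSeq gene table by Entrez ID, the other 193 keeping the annotation's symbol. For 1082 genes with several probes the brightest was used.

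Members of the 48 gene lists not measured by a 1-gene probe were not used. The gate genes Foxp3, Cd4, Cxcr5 and Pdcd1 were left out of the statistics of all lists but their own. No such step was applied to Prdm1. The comparison and the lists were chosen with earlier results of these data known. Genes were named as up to 8 members a list with the largest difference, the 30 highest and lowest genes, the 10 highest and lowest small RNA genes, gate genes and markers of other cells. Other members named for their role (such as Ccnd2, Pcna, Cd28 and Il2ra) were picked with their values already in view. Only the counting past 2-fold and the list median were tested on simulated data, with large planted differences and little noise. Normalization, probe choice and motif counts were not part of that test. Alternatives were the deposited values, 75th percentile centring, cyclic loess, normalization of the control arrays alone, all probes, a floor, other filters and a 1.5-fold threshold.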

Additional observations from a re-analysis of the deposited data

Results flagged for a closer look

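Among the expressed genes named here, those whose difference went one way in the control pair and the other way in the knockout pair, with 1 of them past 2-fold and the other at least 0.3, were Gzmb, Xcl1 and Mir3473c. Gzmb, a cytotoxic protease, differed by 0.60 in the control pair and -1.47 in the knockout pair, where its levels were 4.55 in TFR and 6.01 in non-TFR cells. The chemokine gene Xcl1 differed by 1.21 and -0.40, and Mir3473c by -1.46 and 0.33. Each pair is 1 array a side, and the difference between pairs was not tested.

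Probes without a gene name were used in no comparison. Of the 6118 above the expression limit, 92 were higher by 2-fold or more in control TFR cells and 195 lower. The balance was opposite to that of the 11090 expressed genes, of which 458 (4.13%) were higher and 151 (1.36%) lower.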

How the results depend on the processing

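With 1 array for each population the spread between mice is unknown, and the low levels, which have no detection calls, limit folds. No paired analysis was possible because each population of the control mice has a single array and the labels give no replicate numbers. Counts of genes at least 2-fold apart, 458 higher and 151 lower, stayed within 1.5 times under each other scaling, with the mean of all probes and with a floor. They moved with the filter and the threshold. Without the filter on dim genes 261 were lower, above the 75th percentile of level 157 were higher and 58 lower, and at 1.5-fold 1147 were higher and 639 lower. The median of T follicular cytokines and receptors was 0.88 over members above the median level, and the CCAAT share of higher genes was 46.8% above the 75th percentile. Of the differences of named genes under the alternatives, 2126 kept direction and size, 34 moved and 6 changed sign. Those were Ly6e as deposited (0.06), Col1a1 with 75th percentile centring (-0.0), and, with the mean of all probes, Cox7b (-0.19), Cst3 (0.07), Ell2 (0.15) and Slamf6 (-0.10), whose probes differ in sign. Of the list medians under the alternatives, 331 kept direction and size, 57 moved and 4 changed sign from a value not near 0. Of the 57, 25 moved on the values as deposited and 17 with the mean of members in place of the median. The 4 were markers of germinal centre B cells (-0.0) and of CD8 T and NK cells (0.37) over members above the median level, and, as means, CD8 T and NK cells (0.08) and erythroid cells and platelets (0.03). Medians near 0 also changed sign. As deposited, egress and positioning turned from -0.07 to 0.02, cytokine receptors from -0.05 to 0.05, and glycolysis and heat shock genes each from -0.02 to 0.09. As means, Treg identity turned from 0.01 to -0.12, cytokine receptors to 0.08, glycolysis to 0.07, MHC genes from -0.09 to 0.09, cyclic AMP and RGS genes from 0.07 to -0.01 and adhesion genes from 0.05 to -0.03. Genes of the unfolded protein response, at -0.0, were at 0.06 as deposited, as a mean and with all probes, so that none of these lists has a settled direction. The cause of these changes was not tested.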

Other observations

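Several genes outside the lists were among those furthest apart. Pclaf, which binds the replication clamp, was at 9.70 in control TFR and 6.27 in control non-TFR cells (10.8-fold), the nuclease Dnase1l3 at 8.64 and 5.66, and the smooth muscle actin gene Actg2 at 9.96 and 7.09 (7.34-fold). On the lower side stood the actin-binding protein Cnn3 (5.49 and 7.72), the sorting receptor Sorcs2 (6.37 and 8.44, 4.19-fold), the death-associated kinase Dapk1 (6.99 and 8.67, 3.19-fold), the surface protein Cd7 (9.79 and 11.44, 3.14-fold) and the Tec kinase Txk (8.72 and 10.12, 2.66-fold).

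The groups and genes in this paragraph were chosen after their values were seen, and their counts support nothing. Of 36 measured genes of intraflagellar transport and the BBSome, which build cilia, 28 were higher in TFR cells, beside 51.7% of all genes, with a median of 0.32. At least 2-fold higher were 6, beside 2.69% of all genes. In the knockout pair the median was 0.31, with 1 gene past 2-fold upward and 1 downward. Ift43 was at 8.10 and 6.86 (2.36-fold) and Wdr35 at 7.27 and 6.10 (2.25-fold). Of 24 inflammasome genes 6 were at least 2-fold higher, beside 2.69% of all genes. Among them were Casp1 (9.97 and 8.33, 3.11-fold), Casp4 (9.58 and 8.17, 2.66-fold) and Naip6 (8.90 and 7.35, 2.93-fold). Il18 (6.64 and 4.67) and Nlrp1a (4.67 and 3.58) were also among them but do not count as expressed. The adaptor Pycard (10.22 and 10.24) and Gsdmd (8.36 and 8.52) were level. The median of that list was 0.11 in the control pair and -0.11 in the knockout pair. In the knockout pair 0 of its genes were at least 2-fold higher, beside 2.23% of all genes there. Casp1 was at 10.64 in knockout TFR and 9.79 in knockout non-TFR cells, Casp4 at 10.11 and 9.47 and Naip6 at 8.56 and 8.30. Among 35 genes of TGF-beta and BMP signalling none was at least 2-fold higher, with an upper end of 0.49. Beside 2.69% of all genes, that says little about a list of this size. At least 2-fold lower were 3, beside 1.18% of all genes: Bambi (7.33 and 9.08, 3.37-fold) and Smad7 (10.50 and 11.53, 2.05-fold), which damp the pathway, and the receptor Acvrl1 (5.85 and 7.16). Ifitm2 was at 9.53 and 7.44 (4.25-fold higher) and its relative Ifitm3 at 6.51 and 7.53 (2.04-fold lower). The long noncoding RNA Flicr, transcribed next to Foxp3, was at 7.00 and 8.10 (2.14-fold lower). Xist, the RNA of the inactive X chromosome, was at 11.38 and 10.13 (2.38-fold higher) in the control pair and 11.44 and 10.19 in the knockout pair, so that it was above the expression limit on all 4 arrays. The measured Y-linked genes were above it on all 4 arrays as well and did not differ in 1 direction: in the control pair Eif2s3y was at 7.32 and 8.07, Kdm5d at 7.0 and 6.80 and Uty at 7.05 and 6.75, and in the knockout pair they were at 7.70 and 8.23, 7.35 and 7.42, and 7.73 and 7.0.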
